A study of Homo sapiens with 12 samples.

Results

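UBQLN1, UBQLN2 and UBQLN4 are the ubiquilin genes examined here in human embryonic stem cells (hESCs) that had lost UBQLN1. They were taken by name from the deposited count table, which makes 3 of its 28278 genes, and all 3 passed the filter on low counts that left 15916 genes to test. The questions were how much UBQLN1 transcript the knockout cells still held and whether the levels of the related genes differed between the groups.

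The cells were of the established hESC line WA26, grown without feeder cells. They formed 4 groups of 2 RNA-sequencing libraries: wild type (WT) cells and UBQLN1 knockout (KO) cells at normal O2 with no agent named, the knockout at 5% O2, and the knockout given the antioxidant N-acetyl-L-cysteine (NAC). The KO cells were clones picked after WT WA26 cells had been transfected with a CRISPR-Cas9 plasmid carrying guides against UBQLN1, and WT clones were picked beside them. The study calls the replicates of the KO cells at 5% and normal O2 biological. The labels do not name the clone behind each library or say what separated the replicates, so the p-values measure only the spread between these libraries. WT cells with NAC or at 5% O2, 4 samples in the labels, were not analysed here, so the KO NAC and KO 5% O2 groups differ from WT by both genotype and culture. The labels also do not say whether the KO cells at normal O2 received the solvent of NAC. The study describes RNA-sequencing at 5% O2 after a day of culture, while its scheme shows repeated passages with NAC or low O2 before sequencing. Time of treatment may thus differ between KO NAC and KO 5% O2, and it cannot be told apart from the treatment itself. The same KO libraries at normal O2 are the reference for both treated groups. Passages and time in culture may therefore also differ between KO and a treated group, and cannot be told apart from the treatment there either.

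Ubiquilins carry ubiquitinated or misfolded proteins to the proteasome. Each has a ubiquitin-like domain at its start that binds the proteasome, a ubiquitin-associated domain at its end that binds ubiquitin chains, and middle regions that hold hydrophobic clients, among them membrane proteins that failed to insert. UBQLN1 and UBQLN2 are close relatives made in most tissues. Inherited mutations of UBQLN2 cause a form of amyotrophic lateral sclerosis, and UBQLN4 also takes part in the repair of DNA breaks.

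In hg38 with the GENCODE v44 annotation, UBQLN1 spans chr9:83659968-83707958 on the minus strand and has 11 exons. UBQLN2 spans chrX:56563627-56567868 on the plus strand as a single exon, and UBQLN4 spans chr1:156035299-156053798 on the minus strand with 11 exons. Their canonical transcripts are 3868, 4242 and 3582 bases long, with a GC content of 43.4%, 44.4% and 56.1%.

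The genes are related, so the overlap of their transcripts was measured. The longest run shared by the UBQLN1 and UBQLN2 transcripts was 36 bases. It gave the only 6 of 3838 31-base words of UBQLN1 (0.16%) that also occur in UBQLN2, and UBQLN4 shared no such word with either. Reads from the 3 genes can therefore be told apart over almost their whole length. UBQLN4 has another near-identical copy. Of its 3552 words, 2379 (66.98%) also occur on chromosome 3 between bases 148984184 and 148987691, where RefSeq places the pseudogene UBQLN4P1, against 32 of 3838 words of UBQLN1 (0.83%) and 6 of 4212 words of UBQLN2 (0.14%) found at any other place on the main chromosomes. Counting at default settings leaves out reads that match several places, so the level of UBQLN4 may be understated and is uncertain, while the same stretches are lost in every library.

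Depth ran from 31236968 to 41639350 counts per library, and no pair of replicates agreed within sampling noise. Chi-square per degree of freedom between replicates was 17.5 in WT, 9.8 in KO, 13.4 in KO 5% O2 and 32.3 in KO NAC. The KO NAC pair thus agreed least. The test shares its estimate of spread among the groups, so the SEs of NAC differences may be too small. The 9 hESC markers summed to 6741 to 6784 CPM (counts scaled to a common library size by TMM, edgeR's normalization) in WT, 6448 to 6688 in KO, 6150 to 6154 in KO 5% O2 and 5199 to 5813 in KO NAC, and the ectoderm, mesoderm and endoderm lists of 3 genes each summed to at most 11.2 CPM in any library, with the endoderm gene SOX17 at 0 in all. The hESC markers did not all go the same way with NAC. DNMT3B was at 2553 and 2455 CPM in KO and at 1136 and 1418 CPM in KO NAC. ZFP42 was at 285 and 285 CPM in KO and at 427 and 445 CPM in KO NAC, and TDGF1 was also higher there. A single library stood apart. KO NAC replicate 1 held 1809 counts of DCN and 148 of LUM, stromal genes with 0 counts in the other 7 libraries, and 1062 of PDGFRB against 43 to 164 elsewhere. The 6 stromal markers, 4 of which were counted in every library, summed to 906 CPM there and to 546 in KO NAC replicate 2. The sums were 569 to 580 in WT, 600.3 to 627 in KO and 511 to 540 in KO 5% O2. In every library the largest part of the sum was THY1, at 332 to 476 CPM, so the sum is no measure of stromal cells. Tested differences with NAC are given below also without this library, and group means and ratios of KO NAC include it unless replicate 2 is named. A fit without it leaves 1 KO NAC library, so calls and p-values of that fit measure no spread between NAC libraries. In bulk RNA, fewer cells with a transcript and less of it per cell cannot be told apart.

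UBQLN1 transcript was reduced in the KO libraries but not absent. In WT, 7382 and 7591 UBQLN1 counts were found (221 and 197 CPM), against 1559 and 1789 in KO (42.3 and 43.5 CPM). Both KO libraries lay far below both WT libraries, with no overlap. The mean was 209 ± 17.3 CPM (SD, n = 2) in WT and 42.9 ± 0.85 CPM (SD, n = 2) in KO, so that KO cells kept 20.5% ± 0.41 (SD, n = 2) of the WT level. The log2 fold change was -2.29 (SE 0.12, 95% interval from -2.55 to -2.02), which is 4.88-fold lower (adjusted p = 2.52e-06, edgeR quasi-likelihood test with Benjamini-Hochberg adjustment, which gives every adjusted p below unless another tool is named). This checks the genotype labels. The counts are summed over the whole gene, so they do not resolve the edited stretch or say whether the remaining transcript can be translated. The study examined UBQLN1 protein itself by Western blot in its WT and KO clones, which these counts do not measure. Counting error alone was at most 2.60% of any member's count in any library.

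Residual UBQLN1 was also low in the treated KO groups. KO 5% O2 held 2116 and 1530 counts (51.9 and 47.7 CPM, mean 49.8 ± 2.98, SD, n = 2) and KO NAC held 2392 and 1476 counts (62.4 and 49.3 CPM, mean 55.9 ± 9.29, SD, n = 2). All 4 treated libraries lay above both untreated KO libraries and far below WT, and the 2 treated groups overlapped each other. These levels were 23.8% ± 1.43 (SD, n = 2) of WT at 5% O2 and 26.7% ± 4.44 (SD, n = 2) of WT with NAC. Against WT, UBQLN1 was lower by a log2 fold change of -2.07 at 5% O2 (SE 0.12, adjusted p = 2.85e-06) and of -1.90 with NAC (SE 0.12, adjusted p = 6.63e-06). In KO NAC replicate 2 alone UBQLN1 was at 23.6% of WT, and without replicate 1 the log2 fold change against WT was -2.09.

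UBQLN2 did not pass the test in KO cells. WT libraries held 2327 and 2539 UBQLN2 counts (69.7 and 65.8 CPM) and KO libraries held 2724 and 3026 (73.8 and 73.5 CPM). Both KO libraries were above both WT libraries, by a small margin. The means were 67.8 ± 2.77 CPM in WT and 73.7 ± 0.23 CPM in KO (SD, n = 2 each), and the log2 fold change was 0.12 (SE 0.11, adjusted p = 0.599). The 95% interval of the change ran from 0.925-fold to 1.28-fold.

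UBQLN4 did not pass the test in KO cells either. WT libraries held 2359 and 2679 UBQLN4 counts (70.7 and 69.5 CPM) and KO libraries held 2885 and 3481 (78.2 and 84.6 CPM). Again both KO libraries were above both WT libraries. The means were 70.1 ± 0.88 CPM in WT and 81.4 ± 4.50 CPM in KO (SD, n = 2 each), and the log2 fold change was 0.22 (SE 0.10, unadjusted p = 0.0524, adjusted p = 0.289 by edgeR), with a 95% interval from 0.998-fold to 1.35-fold.

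Of the 3 members, 1 was thus called lower in KO, the targeted gene, where 1.96% of all tested genes were called in either direction with 1.34% higher and 0.622% lower. Neither paralog was called by edgeR, at an unadjusted p under 0.05 in the main fit, or by DESeq2 (adjusted p = 0.652 for UBQLN2 and 0.279 for UBQLN4). By edgeR the unadjusted p of UBQLN4 was 0.0242 in a fit of only the libraries compared, 0.0242 with no TMM factor and 0.0486 with no filter. It passed in none of these after adjustment. Over all genes, 213 were called higher and 99 lower in KO, and 92 and 98 once a trend on transcript length and GC content had been taken out. The cut-offs of the study, a log2 fold change above 1 with a p under 0.05 by DESeq2, were also applied here. They were set on the absolute fold change and unadjusted p of edgeR, so the calls are not those of the study. UBQLN1 alone was then called against WT in KO, KO 5% O2 and KO NAC (2.57%, 3.53% and 6.20% of all tested genes). No member was called in KO NAC or KO 5% O2 against KO or between the treated groups (9.02%, 2.02% and 4.42% of all tested genes).

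**Figure D1:**
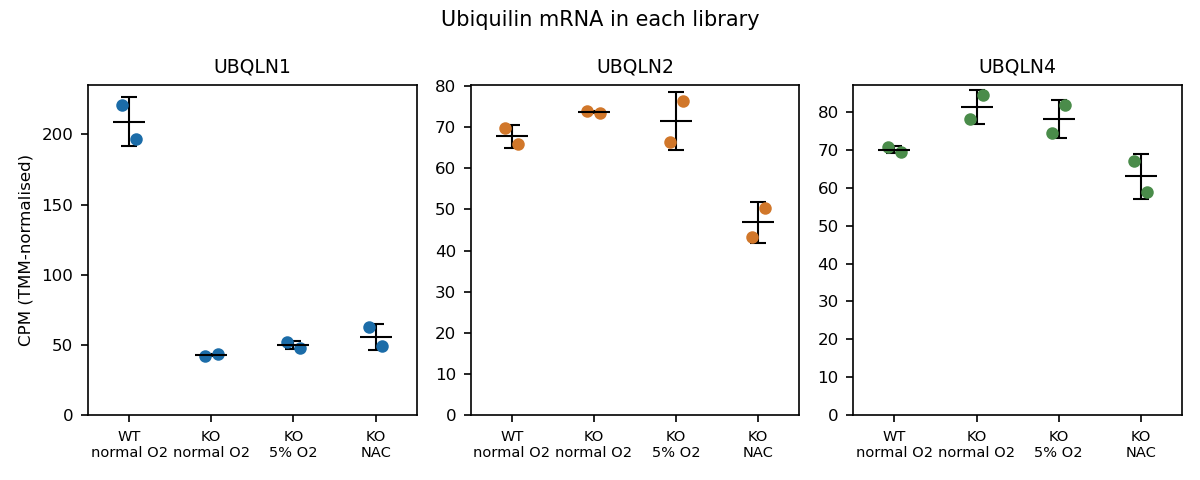
TMM-normalised CPM (y axes, linear, from 0) of UBQLN1, UBQLN2 and UBQLN4 in each library (points) of the 4 groups (x axis), with the mean and SD of each group (n = 2). UBQLN1 fell from 209 CPM in WT to between 42.3 and 62.4 CPM in the 6 KO libraries, and UBQLN2 was lowest in the KO NAC libraries at 43.4 and 50.4 CPM.

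UBQLN2 was lower with NAC than in untreated KO cells. It was at 1663 and 1509 counts in the KO NAC libraries (43.4 and 50.4 CPM, mean 46.9 ± 4.95, SD, n = 2), lower than in each of the other 6 libraries. Against KO at normal O2, UBQLN2 was 1.57-fold lower, a log2 fold change of -0.65 (SE 0.11, 95% interval from -0.89 to -0.42, adjusted p = 0.000433). Without KO NAC replicate 1, the library with stromal markers, the log2 fold change was -0.55. The call was kept with every normalization, filter and tool tried. With the fits that left out a library included, log2 fold changes ran from -0.80 to -0.55. UBQLN2 with NAC was also lower than in WT (log2 fold change -0.53, SE 0.11, adjusted p = 0.0025) and than in KO 5% O2 (log2 fold change -0.61, SE 0.11, adjusted p = 0.002). Without KO NAC replicate 1 these values were -0.43 and -0.51.

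UBQLN4 was at 2575 and 1763 counts in the KO NAC libraries (67.2 and 58.9 CPM, mean 63.0 ± 5.89, SD, n = 2). Both lay below all KO libraries at normal O2 and at 5% O2, and also below WT. The difference from KO at normal O2 was a log2 fold change of -0.37 (SE 0.10, 95% interval from -0.59 to -0.15, adjusted p = 0.0104), or 1.29-fold lower. This call was lost when each library's smooth trend on length and GC content was taken out, with a log2 fold change of -0.0062 (adjusted p = 0.969), and without KO replicate 2 (log2 fold change -0.31, adjusted p = 0.0999). UBQLN4 has the highest GC content of the 3 members, at 56.1%. For UBQLN2, with a GC content of 44.4%, the corrected value was -0.72 (adjusted p = 0.00109) and the call was kept. For UBQLN1, with 43.4%, the corrected value was 0.21 (adjusted p = 0.165) and the call was lost. The part of GC content in the UBQLN4 value was not tested beyond this correction. UBQLN4 with NAC did not pass the test against WT (log2 fold change -0.15, 95% interval from -0.37 to 0.07, adjusted p = 0.261), and without KO NAC replicate 1 that value was -0.25. Against KO 5% O2 it was lower (log2 fold change -0.31, SE 0.10, adjusted p = 0.0373), also without KO NAC replicate 1 (-0.41). The call was lost without KO NAC replicate 2 (-0.22, adjusted p = 0.138), without either KO 5% O2 library (adjusted p = 0.0588 and 0.245), after the length and GC trend was removed (-0.11, adjusted p = 0.449) and in a fit of only the libraries compared (-0.34, adjusted p = 0.0660). Without KO NAC replicate 1 the UBQLN4 difference from KO at normal O2 was -0.47.

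UBQLN1 was higher with NAC. The 2 KO NAC libraries were at 62.4 and 49.3 CPM against 42.3 and 43.5 CPM in untreated KO cells, a log2 fold change of 0.38 (SE 0.12, 95% interval from 0.13 to 0.64, adjusted p = 0.0196), or 1.30-fold higher. The size rested on KO NAC replicate 1, without which the log2 fold change was 0.20 (adjusted p = 0.168). The call was also lost without KO replicate 1 (log2 fold change 0.36, adjusted p = 0.115) and without KO replicate 2 (0.40, adjusted p = 0.0837). It was lost as well after the length and GC trend was removed (0.21, adjusted p = 0.165). The stromal markers of that library are given above, and their part in its UBQLN1 level was not tested. UBQLN1 did not pass the test between KO NAC and KO 5% O2 (log2 fold change 0.17, 95% interval from -0.09 to 0.43, adjusted p = 0.320), and without KO NAC replicate 1 the difference was -0.02.

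With NAC, all 3 members were called against untreated KO cells, in a comparison where 44.6% of all tested genes were called (23.8% higher and 20.8% lower), so a call on its own says little about these genes. On library totals with no TMM factor the split of all calls turned from 3785 higher and 3315 lower to 2742 higher and 4283 lower, and the median of all genes moved to -0.12, against which UBQLN1 was at 0.24, UBQLN2 at -0.80 and UBQLN4 at -0.51 on the log2 scale. Against WT, 2 of 3 members were called in KO NAC (38.2% of all tested genes), and 2 of 3 were called between KO NAC and KO 5% O2 (29.1% of all tested genes). These comparisons share groups, so they are not independent of each other.

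**Figure D2:**
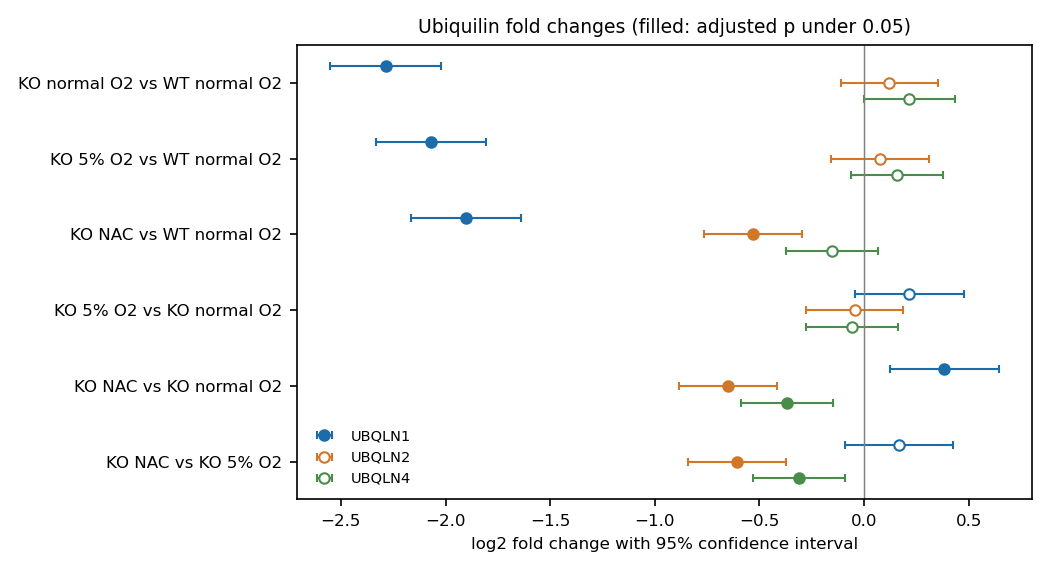
Log2 fold change (x axis) with its 95% interval of UBQLN1, UBQLN2 and UBQLN4 for each of the 6 comparisons among the 4 groups (y axis), filled where the adjusted p was under 0.05. UBQLN1 lay between -2.29 and -1.90 against WT in all KO groups, and UBQLN2 was between -0.65 and -0.53 in the 3 comparisons of KO NAC.

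At 5% O2 none of the members passed the test against KO at normal O2. UBQLN2 was at 2709 and 2454 counts (66.4 and 76.5 CPM), on either side of the untreated KO libraries, and UBQLN4 was at 3040 and 2625 counts (74.6 and 81.8 CPM), overlapping the untreated KO range. The log2 fold change of UBQLN2 was -0.04 (95% interval from -0.28 to 0.19, adjusted p = 0.844) and that of UBQLN4 was -0.06 (95% interval from -0.28 to 0.16, adjusted p = 0.774). For UBQLN1, with both libraries above the untreated KO libraries, it was 0.22 (95% interval from -0.04 to 0.48, adjusted p = 0.283). None was called by edgeR, at an unadjusted p under 0.05 in the main fit or by DESeq2, where 7.81% of all tested genes were called by edgeR (3.68% higher and 4.13% lower). By edgeR the unadjusted p of UBQLN1 was 0.0303 in a fit of only the libraries compared and 0.0493 with no filter. It passed in neither after adjustment. Over all genes 586 were called higher and 657 lower, 279 and 57 after the length and GC trend was removed, and 260 and 1280 on library totals with no TMM factor. Against WT, KO 5% O2 had 1 of 3 members called, UBQLN1, where 3.27% of all tested genes were called. The paralogs there were at log2 fold changes of 0.08 for UBQLN2 (adjusted p = 0.753) and 0.16 for UBQLN4 (adjusted p = 0.423).

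Ratios of counts within a library need no scaling between libraries. They still carry any trend of that library on length and GC content, and UBQLN4 has the highest GC content of the members. There were 3.17 and 2.99 UBQLN1 counts for each UBQLN2 count in the WT libraries, 0.572 and 0.591 in KO, 0.781 and 0.623 in KO 5% O2, and 1.44 and 0.978 in KO NAC. The 3 KO groups did not overlap WT, and the KO NAC pair lay above all other KO libraries, where UBQLN1 was higher and UBQLN2 lower. The ratio of UBQLN2 to UBQLN4 was 0.986 and 0.948 in WT, 0.944 and 0.869 in KO, 0.891 and 0.935 in KO 5% O2, and 0.646 and 0.856 in KO NAC. The first KO NAC library had the lowest ratio of all, and the second lay just below the lowest KO value.

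Per kilobase of transcript, UBQLN1 was the most abundant ubiquilin in WT cells and the least abundant in untreated KO cells. In WT the order was UBQLN1 at 54.0 ± 4.47, UBQLN4 at 19.6 ± 0.25 and UBQLN2 at 15.98 ± 0.65 CPM per kb (SD, n = 2). In KO the order was UBQLN4 at 22.7 ± 1.26, UBQLN2 at 17.4 ± 0.054 and UBQLN1 at 11.1 ± 0.22 CPM per kb (SD, n = 2). In neither group did the libraries of neighbours in the order overlap. With NAC, UBQLN4 was at 17.6 ± 1.64, UBQLN1 at 14.4 ± 2.40 and UBQLN2 at 11.1 ± 1.17 CPM per kb (SD, n = 2), and within each library UBQLN1 exceeded UBQLN2. At 5% O2, UBQLN4 was at 21.8 ± 1.43, UBQLN2 at 16.8 ± 1.67 and UBQLN1 at 12.9 ± 0.77 CPM per kb (SD, n = 2).

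UBQLN1 thus made up 60.3% ± 1.38 of the summed ubiquilin signal per kilobase in WT and 21.7% ± 0.17 in KO (SD, n = 2). The share was 25.0% ± 2.63 at 5% O2 and 33.4% ± 3.34 with NAC (SD, n = 2). UBQLN2 went from 17.8% ± 0.34 in WT to 34.0% ± 1.05 in KO and 25.8% ± 4.43 in KO NAC, and UBQLN4 from 21.9% ± 1.04 to 44.4% ± 1.22 and 40.8% ± 1.09 (SD, n = 2). In KO NAC replicate 2 alone the shares were 31.04% for UBQLN1, 28.9% for UBQLN2 and 40.03% for UBQLN4. Shares add up to 100%, so a lower UBQLN1 raises the other shares. The summed signal itself was 89.6 ± 5.36 CPM per kb in WT, 51.2 ± 1.42 in KO, 51.5 ± 2.33 in KO 5% O2 and 43.1 ± 2.88 in KO NAC (SD, n = 2), or 57.1%, 57.5% and 48.1% of WT. All 6 KO libraries were below both WT libraries.

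The family's make-up depended on how UBQLN4 was measured. When only the 31-base words found nowhere else on the main chromosomes of hg38 were counted as length, which takes it that no read from the repeated words was counted, UBQLN4 held 45.7% of the summed signal in WT and 70.7% in KO, against 41.96% and 11.5% for UBQLN1. The summed signal of KO was then 75.0% of WT. On this length UBQLN4 and not UBQLN1 was the most abundant member in WT. How the aligner placed reads between UBQLN4 and its pseudogene was not tested, and comparisons of each gene between groups do not depend on the length.

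**Figure D3:**
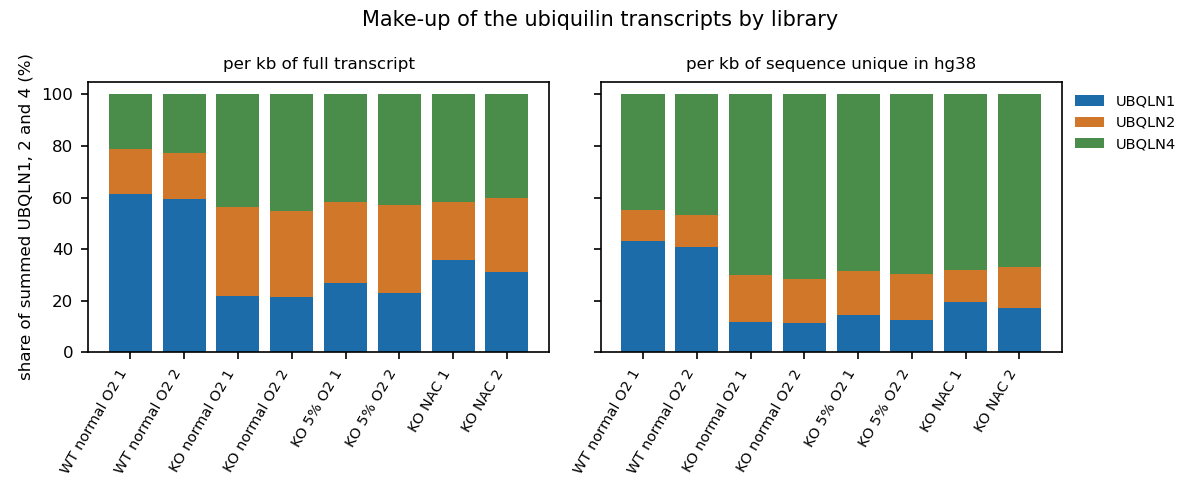
Share in percent (y axes) of UBQLN1, UBQLN2 and UBQLN4 in their summed CPM per kilobase in each library (x axes), per kilobase of the full transcript (left) and per kilobase of sequence unique in hg38 (right). UBQLN1 made up 60.3% in WT and 21.7% in KO on the left, and 41.96% and 11.5% on the right.

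UBQLNL, a divergent relative of the ubiquilins, had 0 to 5 counts per library and did not pass the filter on low counts. LOC105376114, whose annotated span overlaps the first exon of UBQLN1, had 11 to 42 counts, few beside the 1476 or more UBQLN1 counts of each library, and did not pass the test in KO (log2 fold change 0.32, SE 0.56, adjusted p = 0.811).

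A list of 34 genes that work with ubiquilins or resemble them, of which 31 could be tested, showed few differences between KO and WT. In KO 2 were called higher, 1 was called lower and 28 were not called. That is 9.68% of the list, and the background over all tested genes is the 1.96% given above. The median log2 fold change of the list was -0.04 and that of all tested genes was -0.0024. OPTN, an autophagy receptor for ubiquitinated cargo including damaged mitochondria, was at 32.1 and 30.8 CPM in WT and at 9.62 and 10.2 CPM in KO. Its groups were far apart, with a log2 fold change of -1.67 (SE 0.21, adjusted p = 0.00152), and its call was kept in every alternative fit, with an adjusted p of at most 0.0436.

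DDI2, another shuttle factor with a ubiquitin-like domain and a protease that activates a regulator of proteasome genes, was at 67.7 and 61.6 CPM in WT and at 91.5 and 82.9 CPM in KO (log2 fold change 0.43, SE 0.09, adjusted p = 0.0405). BAG6, which holds membrane proteins that failed to insert, was at 13.1 and 9.98 CPM in WT and at 28.5 and 44.5 CPM in KO (log2 fold change 1.66, SE 0.30, adjusted p = 0.0171). Both KO libraries lay above both WT libraries for each gene. The DDI2 call was lost without any single library other than those with NAC (adjusted p from 0.0814 to 0.411) and the BAG6 call without either WT library or without KO replicate 2 (adjusted p from 0.0961 to 0.235). After removal of the length and GC trend the adjusted p was 0.084 for DDI2 and 0.0513 for BAG6. With upper quartile normalization the adjusted p of DDI2 was 0.0546 by edgeR, so its call was lost there too. Of the 31-base words of BAG6, 81.51% also lie on alternate scaffolds of hg38, so its counts depend on whether the aligner's index held them, and its values are uncertain.

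None of the 4 proteasome subunits that receive or dock shuttle factors (PSMD4, ADRM1, PSMD1 and PSMD2) and none of the 4 ubiquitin genes was called in KO by edgeR, at an unadjusted p under 0.05 or by DESeq2. The log2 fold changes ran from -0.07 to 0.19 for the subunits and from -0.09 to 0.0005 for the ubiquitin genes. PEG10, a retrotransposon-derived gene whose protein is a known client of UBQLN2, was at 405 and 370 CPM in WT and at 500.4 and 465 CPM in KO. Its log2 fold change of 0.32 (SE 0.08) did not pass the test by edgeR (adjusted p = 0.077) and passed it by DESeq2 (adjusted p = 0.0146).

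With NAC, 10 genes of the list were called higher and 7 lower than in untreated KO cells, and 14 were not called. The share called was 54.8%, beside the 44.6% of all tested genes given above, and the medians were 0.01 for the list and 0.02 for all genes. HSPA13, a chaperone of the heat shock protein 70 family that binds ubiquilins, was at 48.8 and 47.1 CPM in KO and at 134 and 120.5 CPM in KO NAC. It rose 2.65-fold (log2 fold change 1.41, SE 0.09, adjusted p = 1.28e-05), and by 0.71 on the log2 scale after the length and GC trend was removed (adjusted p = 0.000382). Also higher were GET3, the ATPase that delivers tail-anchored proteins to the endoplasmic reticulum (log2 fold change 0.77, SE 0.16, adjusted p = 0.00187), and UBXN4, a membrane protein of degradation from the endoplasmic reticulum that binds ubiquilin (0.71, SE 0.11, adjusted p = 0.000274). The UBXN4 call was lost after the trend was removed (0.24, adjusted p = 0.0624).

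Among the list's genes that fell with NAC, BAG6 had a log2 fold change of -1.55 (SE 0.30, adjusted p = 0.00126), PEG10 of -0.82 (SE 0.08, adjusted p = 2.67e-05) and DDI2 of -0.79 (SE 0.10, adjusted p = 6.04e-05). PEG10 was at 277 and 269.7 CPM and DDI2 at 49.9 and 51.1 CPM in the KO NAC libraries, below all 6 other libraries for each gene. All 4 retrotransposon-derived genes of the list (PEG10, RTL8A, RTL8B and RTL8C) were called lower, from -0.82 to -0.33 on the log2 scale, where 20.8% of all tested genes were called lower. RTL8A, RTL8B and RTL8C were named after their values were seen, so this count is a description only. Of their 31-base words, 19.08%, 16.0% and 20.4% also occur elsewhere in hg38. Of the 4 ubiquitin genes, 3 were called higher, up to 0.59, where 23.8% of all tested genes were. Of the 31-base words of UBB and RPS27A, 54.66% and 65.17% also occur elsewhere in hg38, so the counts of these ubiquitin genes are uncertain. The 4 proteasome subunits had log2 fold changes from -0.22 to 0.19 and adjusted p of at least 0.109. HSPA13, GET3, UBXN4, BAG6, PEG10 and DDI2 kept their calls without KO NAC replicate 1, RTL8A did not (log2 fold change -0.30, adjusted p = 0.0671), and without that library 7 genes of the list were called higher and 6 lower. Without KO replicate 1 the number called higher was 5.

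At 5% O2, 2 genes of the list were called higher, 0 were called lower and 29 were not called, a share of 6.45% beside the 7.81% of all tested genes given above. HSPA13 was at 75.4 and 71.8 CPM, above the untreated KO libraries at 48.8 and 47.1 CPM (log2 fold change 0.62, SE 0.09, adjusted p = 0.00519). The median of the list was 0.11 against -0.00025 for all tested genes. By DESeq2, 5 were higher and 0 lower, and at an unadjusted p under 0.05 by edgeR 8 were higher and 1 lower. The HSPA13 call was lost without either KO library or without KO 5% O2 replicate 1. It was also lost with the length and GC trend removed and a replicate block added.

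**Figure D4:**
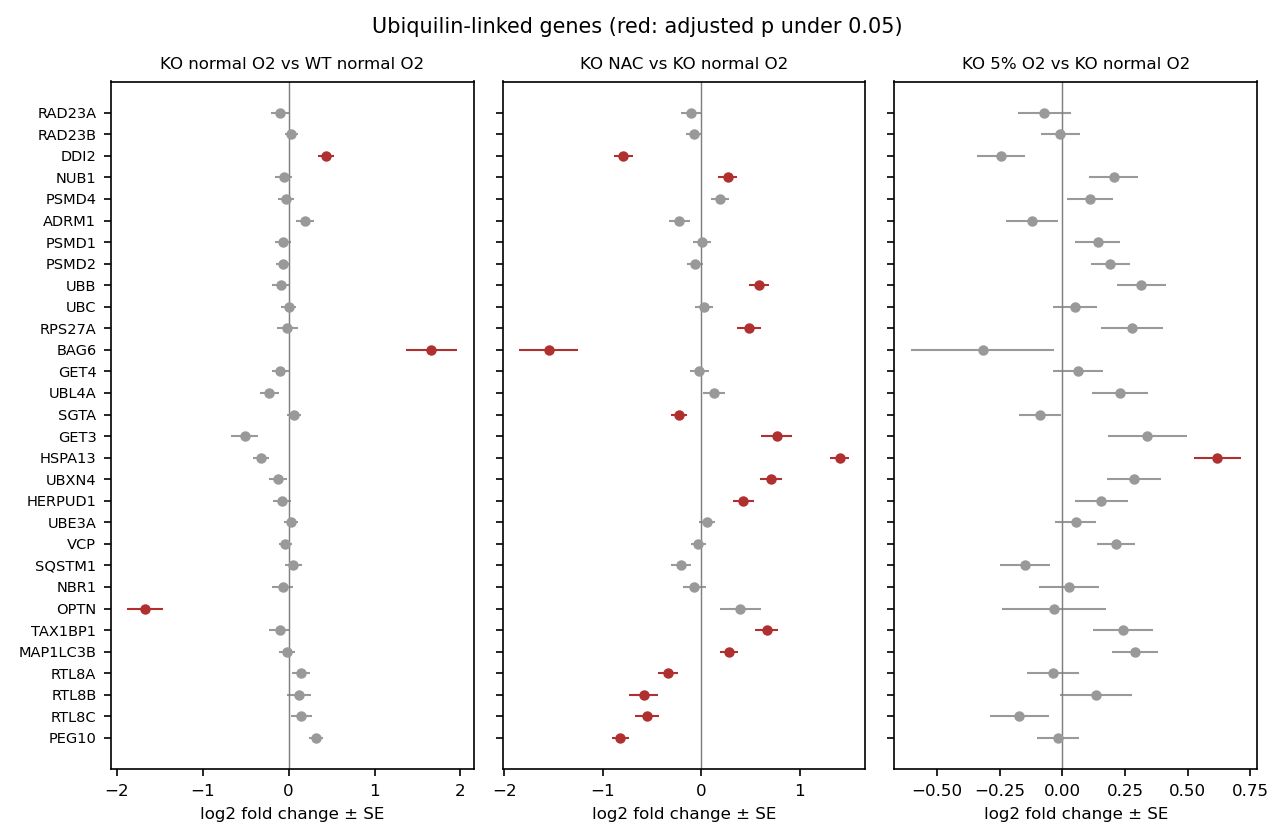
Log2 fold change with its SE (x axes, a scale for each panel) of tested genes that work with or resemble ubiquilins (y axis) in KO against WT, KO NAC against KO and KO 5% O2 against KO, in red where the adjusted p was under 0.05. OPTN was at -1.67 on the left, and HSPA13 was at 1.41 in the middle and at 0.62 on the right.

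Genes beside the members on the chromosome were compared over the 3 nearest tested genes on each side, at distances of up to 1074 kb (USP51 from UBQLN2). In KO against WT the lowest adjusted p among these 18 genes was 0.257. For UBQLN1 they were IDNK, FRMD3 and RASEF on one side and LOC105376114, GKAP1 and KIF27 on the other, with log2 fold changes from -0.65 (GKAP1, SE 0.28, adjusted p = 0.257) to 0.32. Of all tested genes 44.6% were called with NAC and 7.81% at 5% O2, so a neighbour's call on its own says little. With NAC, GKAP1 was higher (log2 fold change 1.05, SE 0.28, adjusted p = 0.0092), as was NBDY, a regulator of mRNA decapping near UBQLN2 (0.48, SE 0.10, adjusted p = 0.00281). The other neighbours of UBQLN2 (KLF8, RRAGB, USP51, UQCRBP1 and SPIN3) were not called with NAC or at 5% O2. Beside UBQLN4, SSR2, a subunit of the translocon-associated complex, was higher with NAC (0.96, SE 0.10, adjusted p = 2.41e-05) and at 5% O2 (0.37, SE 0.09, adjusted p = 0.0378). With NAC KHDC4 (0.39, adjusted p = 0.0135) and RAB25 (0.66, adjusted p = 0.00703) were also higher, ARHGEF2 was lower (-0.52, adjusted p = 0.00113), and LAMTOR2, whose annotated span starts 0.984 kb from UBQLN4, and MEX3A were not called. Without KO NAC replicate 1 the calls of GKAP1 (0.64, adjusted p = 0.0849), KHDC4 (0.30, adjusted p = 0.0698) and RAB25 (0.36, adjusted p = 0.0617) were lost, while RRAGB (0.78, adjusted p = 0.0199) and USP51 (0.78, adjusted p = 0.00302) were called higher.

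Over the 8 libraries, log2 CPM of each member was set beside that of 12271 genes with a mean of at least 1 log2 CPM. The genes closest to UBQLN1 were PAWR (Pearson r 0.991), FZD7 (0.988), TSC22D3 (0.988), OPTN (0.974) and ATG4A (0.969), of which FZD7 is a Wnt receptor and ATG4A a protease of autophagy. They follow the split of 2 WT from 6 KO libraries. Those closest to UBQLN2 were CRMP1 (0.997), PABPC4 (0.994), MYBL2 (0.994), DNAJC5 (0.994) and SLC6A8 (0.992), all called lower with NAC and not in KO, and 34.81% of the words of SLC6A8 also occur elsewhere in hg38. Those closest to UBQLN4 were HIVEP2 (0.989), PANK2 (0.985), LINC01128 (0.981), DVL2 (0.979) and STK40 (0.977), also all called lower with NAC, and 58.85% of the words of LINC01128 also occur elsewhere. These 10 genes were lower with NAC without KO NAC replicate 1 as well. Between members, r was 0.04 for UBQLN1 with UBQLN2, -0.28 for UBQLN1 with UBQLN4 and 0.78 for UBQLN2 with UBQLN4, and over the 7 libraries without KO NAC replicate 1 it was -0.02, -0.32 and 0.93. These values describe 8 libraries of 4 groups, whose points share library depth and quality, and the genes were picked as the highest of many. Sharing the pattern of their member follows from that choice, so their calls in KO and with NAC add nothing separate. Over all tested genes, 20.8% were called lower with NAC.

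**Figure D5:**
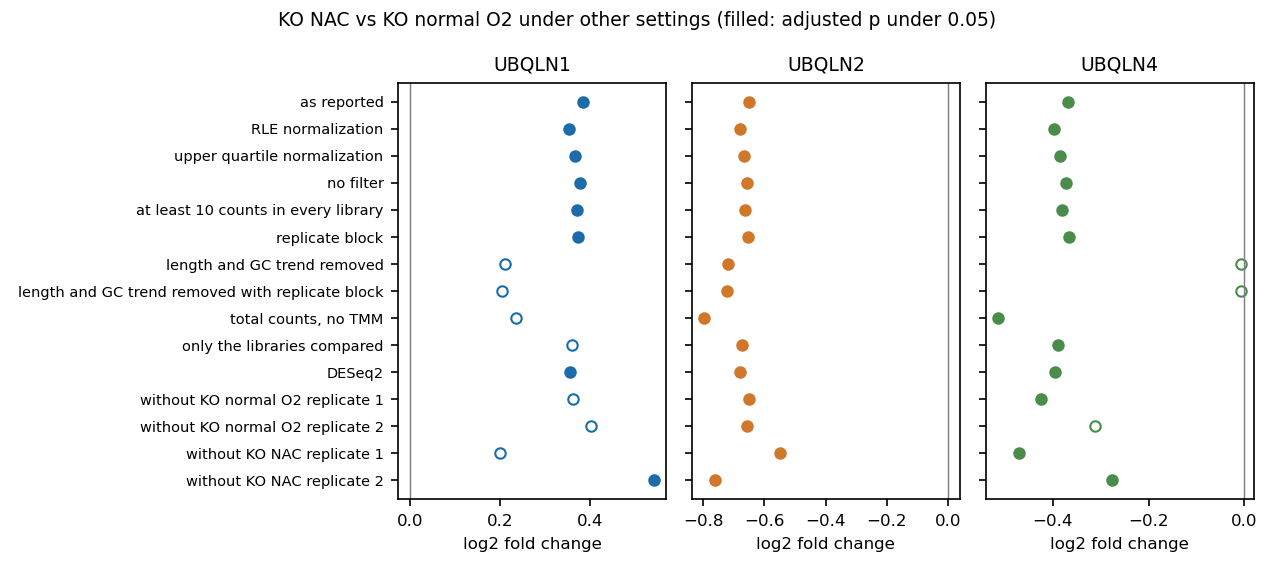
Log2 fold change in KO NAC against KO at normal O2 (x axes, a scale for each panel) of UBQLN1, UBQLN2 and UBQLN4 under each alternative fit (y axis), filled where the adjusted p was under 0.05. UBQLN2 stayed between -0.80 and -0.55 and filled throughout, whereas UBQLN1 lost its call in 7 fits and UBQLN4 moved to -0.0062 once the length and GC trend was removed.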

How the data were processed

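RNA-sequencing of 8 libraries of WA26 hESCs in 4 groups was analysed. By the methods of the study, the authors used trim-galore for quality control, HISAT2 for alignment to hg38 and featureCounts for counting, and what they deposited are raw gene counts. The submitters' processing notes also name FastQC 0.11.9. The annotation used for counting is not given in the sources used here. Default featureCounts ignores strand and drops reads that match several places or overlap several genes, so copied and overlapping genes lose reads. Genes were matched by symbol.

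From the counts, edgeR 4.0.16 in R 4.3.3 was used with filterByExpr (minimum count 10), TMM, 1 term per group, no block and the quasi-likelihood test, in 1 fit of the 8 libraries. P-values were two-sided and adjusted by the Benjamini-Hochberg method over 15916 genes, with calls at an adjusted p under 0.05. SEs were derived from the log2 fold change and its F statistic. The residual degrees of freedom were 4 and the biological coefficient of variation was 13.7%. Depths of 31236968 to 41639350 counts gave each member at least 1476 counts per library.

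The members and gene lists were chosen with earlier results of these data known. Named genes were the 3 members, list genes called in KO, the up to 6 largest called list genes for NAC and for 5% O2, the 3 nearest tested genes on each side, and the 5 most correlated genes. RTL8A, RTL8B and RTL8C were named after their values were seen. RefSeq positions were matched for 96.8% of tested genes. Alternatives were RLE and upper quartile normalization, 2 other filters, DESeq2 1.42.0, a replicate block and removal of a length and GC trend (mgcv 1.9.3, lengths known for 95.3% of tested genes). Others were a fit of only the libraries compared, the study's cut-offs on edgeR values (log2 fold change beyond 1 either way, unadjusted p under 0.05), other transcript lengths, and each library left out. Library totals with no TMM factor and unique sequence as length were added after seeing the data. A fit with a library left out leaves 1 library in that group, so its p-values measure no spread within that group. The computations were tested on simulated counts. Some list genes count in the totals but are not reported here by name. The guide sequences and the 4 WT samples with NAC or at 5% O2 are not analysed here.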

Additional observations from a re-analysis of the deposited data

How the results depend on the processing

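Across 18 member results and 270 alternative values, 239 kept their direction and side of the threshold, 22 lost the call, 1 gained it and 8 changed sign. The KO against WT results of all 3 members kept theirs throughout. The cause of each change was not tested.

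With the length and GC trend removed, KO NAC against KO gave 0.21 for UBQLN1 and -0.0062 for UBQLN4, KO NAC against KO 5% O2 gave -0.11 for UBQLN4, and UBQLN4 changed sign at 5% O2 against KO (0.10) and with NAC against WT (0.14), neither called before or after. With the replicate block added to that correction the same values were 0.20, -0.0075, -0.11, 0.10 and 0.14. With library totals and no TMM factor UBQLN1 with NAC gave 0.24, and in a fit of only the libraries compared UBQLN1 with NAC gave 0.36 and UBQLN4 in KO NAC against KO 5% O2 gave -0.34. By the call on fold change and unadjusted p, no member's NAC result against KO was called (0.38, -0.65 and -0.37 for UBQLN1, UBQLN2 and UBQLN4), nor UBQLN2 with NAC against WT (-0.53), nor UBQLN2 (-0.61) and UBQLN4 (-0.31) in KO NAC against KO 5% O2.

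Leaving out each library in turn gave, for NAC against KO, 0.20 to 0.54 for UBQLN1, -0.76 to -0.55 for UBQLN2 and -0.47 to -0.28 for UBQLN4. For 5% O2 against KO it gave -0.15 to 0.05 for UBQLN2, positive without KO 5% O2 replicate 1 (0.054), and -0.13 to 0.01 for UBQLN4, positive without the same library (0.0077). For 5% O2 against WT UBQLN2 ran from -0.03 to 0.17, with -0.027 without KO 5% O2 replicate 2. For KO NAC against KO 5% O2 it gave -0.02 to 0.33 for UBQLN1, with -0.018 without KO NAC replicate 1 and a call without KO NAC replicate 2 (0.33, adjusted p = 0.0322 by edgeR), and -0.41 to -0.22 for UBQLN4, uncalled without either KO 5% O2 library (-0.38 and -0.24) or without KO NAC replicate 2.

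The number of list genes called higher in KO, 2, was 1 with upper quartile normalization, 0 with the trend removed, 1 with the trend and the replicate block, 1 by fold change and unadjusted p, and 0 to 1 with a library left out. The 1 called lower was 2 with no filter and 3 by DESeq2. With NAC, the 10 higher and 7 lower became 1 and 1 by fold change and unadjusted p, and ran from 5 to 10 and from 4 to 8 with a library left out, the 5 without KO replicate 1 and the 4 without KO replicate 2. At 5% O2, the 2 higher became 5 with no filter, 0 with the trend and block, 1 with no TMM factor, 8 in a fit of only the libraries compared, 5 by DESeq2, 0 by fold change and unadjusted p, and 0 to 1 with a library left out, and the 0 lower became 1 with no TMM factor.

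Shares moved by more than 1 SD as follows. Per kilobase of coding length, UBQLN1 in KO was 22.3%, UBQLN2 was 18.7%, 36.2% and 34.8% in WT, KO and KO 5% O2, and UBQLN4 was 20.1%, 41.5%, 39.5% and 38.1% in WT, KO, KO 5% O2 and KO NAC. With no length correction UBQLN2 was 19.6%, 37.2% and 35.8%, and UBQLN4 was 20.2%, 41.1%, 39.2% and 38.0%, in the same order. Per kilobase of unique sequence UBQLN1 was 41.96%, 11.5%, 13.6% and 18.4%, UBQLN2 was 12.3%, 17.9%, 17.5% and 14.1%, and UBQLN4 was 45.7%, 70.7%, 68.9% and 67.5% in WT, KO, KO 5% O2 and KO NAC.

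The labels number replicates 1 and 2 in each group without saying that a number marks a shared batch. Deviations of same-numbered libraries from their group means correlated by -0.0226 to 0.0816 over genes, so the numbers were not taken as pairs, and a replicate block alone changed no call of a member (log2 fold change of UBQLN2 with NAC -0.65, adjusted p = 0.000458 by edgeR). The precision of each value is limited by 2 libraries a group.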
